A study of Mus musculus with 8 samples.

Results

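The erythroid genes Alas2, Slc4a1, Ahsp, Klf1, Gata1, Rhag, Hba-a1 and Tfrc were followed across the livers of neonatal mice. They were chosen by name, as genes of the red cell lineage, and 7 of the 8 had a row among the 24411 gene symbols of the count table. Ahsp was not analysed here. Of the 7, only Alas2, Slc4a1, Klf1 and Tfrc (4 genes) had enough counts to pass the filter on low counts and be tested. Gata1 and Rhag were close to 0, and Hba-a1 was listed at 0 in every library.

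The liver is the site of red cell formation before birth, and in the mouse pockets of erythroid precursors remain there for some time after birth while bone marrow and spleen take over. Erythroid precursors are driven by the transcription factors GATA1 and KLF1, take up iron through the transferrin receptor, make heme starting with the enzyme ALAS2, and build hemoglobin and the red cell membrane. Bulk liver RNA holds these cells together with many hepatocytes, so fewer cells of a type and less RNA per cell cannot be told apart in these data.

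All mice carried the human UGT1 locus on a Ugt1-/- background (hUGT1) in the C57BL/6 strain. The hUGT1/Atf4F/F mice carried floxed Atf4 alleles, and in hUGT1/Atf4ΔHep mice a Cre driven by the albumin promoter (Alb-Cre) deleted Atf4 in hepatocytes, so the erythroid cells of both genotypes were not its target. Each genotype received vehicle or triclosan (TCS), an antibacterial agent, at 50 mg/kg by oral gavage on 4 consecutive days. Pups of both sexes were 10 days old at the first dose, whereas the RNA-sequencing methods give an age of 14 days. Each of the 4 groups had 2 libraries, and each library pooled the RNA of 2 mice. The labels do not say which litters the mice came from, and p-values measure the spread between these pools.

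The 8 libraries held 11624143 to 25573210 counts, and levels are given as CPM, the counts scaled to a common library size after normalization, with the SD over n = 2 libraries. The target of the deletion had 58.6 to 62.8 CPM in the 4 hUGT1/Atf4F/F libraries and 17.4 to 19.7 CPM in the 4 hUGT1/Atf4ΔHep libraries. The pools differed in sex makeup. Xist, the RNA that coats the silenced X chromosome in females, stood between 718 and 778 CPM in both TCS-treated hUGT1/Atf4F/F libraries, in replicate 1 of vehicle-treated hUGT1/Atf4ΔHep and in replicate 2 of TCS-treated hUGT1/Atf4ΔHep, and between 0.346 and 23.2 CPM in the other libraries. In hUGT1/Atf4F/F mice the sex makeup and the treatment therefore cannot be told apart, for any gene. Comparisons that use these libraries carry part of this imbalance, those averaged over genotypes included. Alas2 and Gata1 lie on the X chromosome, and whether their levels differ by sex was not tested.

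The promoters of these genes are shown because GATA1 itself is a member and binds GATA motifs. The letters searched were AGATAA, its variant AGATAG, then TGATAA and its variant TGATAG. In the 250 bases before the RefSeq start, on either strand, they were found for Alas2, Klf1, Rhag and Hba-a1 and not for Gata1 and Tfrc. Slc4a1 had no promoter entry. One of these letter strings was present in 26.5% of 32851 promoters of the same length. The stretches below run 5′ to 3′ on the plus strand of GRCm38.p6, which is the strand of each gene, end before the first annotated start and have the match in capitals, with TTATCT and TTATCA being AGATAA and TGATAA on the other strand. Alas2 lies at chrX:150547167-150547374, Klf1 at chr8:84901732-84901927, Rhag at chr17:40810899-40811125 and Hba-a1 at chr11:32283422-32283510.
Alas2: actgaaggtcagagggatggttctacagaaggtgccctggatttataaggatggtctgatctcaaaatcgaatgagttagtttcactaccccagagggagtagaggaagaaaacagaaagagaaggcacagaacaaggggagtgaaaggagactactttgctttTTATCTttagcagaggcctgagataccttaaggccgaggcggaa
Klf1: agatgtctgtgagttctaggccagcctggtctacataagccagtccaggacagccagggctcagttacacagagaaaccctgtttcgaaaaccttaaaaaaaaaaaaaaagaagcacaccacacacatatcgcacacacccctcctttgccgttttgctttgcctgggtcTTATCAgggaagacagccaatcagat
Rhag: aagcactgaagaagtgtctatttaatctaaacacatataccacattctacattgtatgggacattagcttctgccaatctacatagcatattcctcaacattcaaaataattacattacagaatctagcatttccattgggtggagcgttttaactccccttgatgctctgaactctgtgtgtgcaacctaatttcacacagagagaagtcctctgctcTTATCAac
Hba-a1: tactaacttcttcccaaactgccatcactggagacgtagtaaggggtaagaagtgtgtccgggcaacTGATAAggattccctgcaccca

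The first bases of the matches lay at -86 for Alas2, -80 for Klf1, -31 for Rhag and -183 for Hba-a1 relative to the RefSeq start. The CACCC letters CCNCNCCC, which KLF1 and other factors of its family bind, were found on either strand for Alas2, Gata1 and Tfrc, and in 45.9% of all promoters. A match describes these letters only. Members with a GATA match ranged from Alas2, the second highest per length, to Hba-a1, listed at 0.

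Levels per length set the members in a clear order. Over the 8 libraries, Tfrc averaged 37.6 CPM per kilobase of exon, Alas2 17.0, Klf1 0.941, Slc4a1 0.715, Rhag 0.0613 and Gata1 0.0552. Tfrc and Alas2 did not overlap in any library, and neither did Alas2 and Klf1 or Slc4a1 and Rhag. The libraries of Klf1 and Slc4a1 overlapped, as did those of Rhag and Gata1, so these neighbours in the order did not differ beyond their spread. Tfrc is expressed by dividing and iron-hungry cells of many kinds, so its level is not that of an erythroid gene alone.

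**Figure D1:**
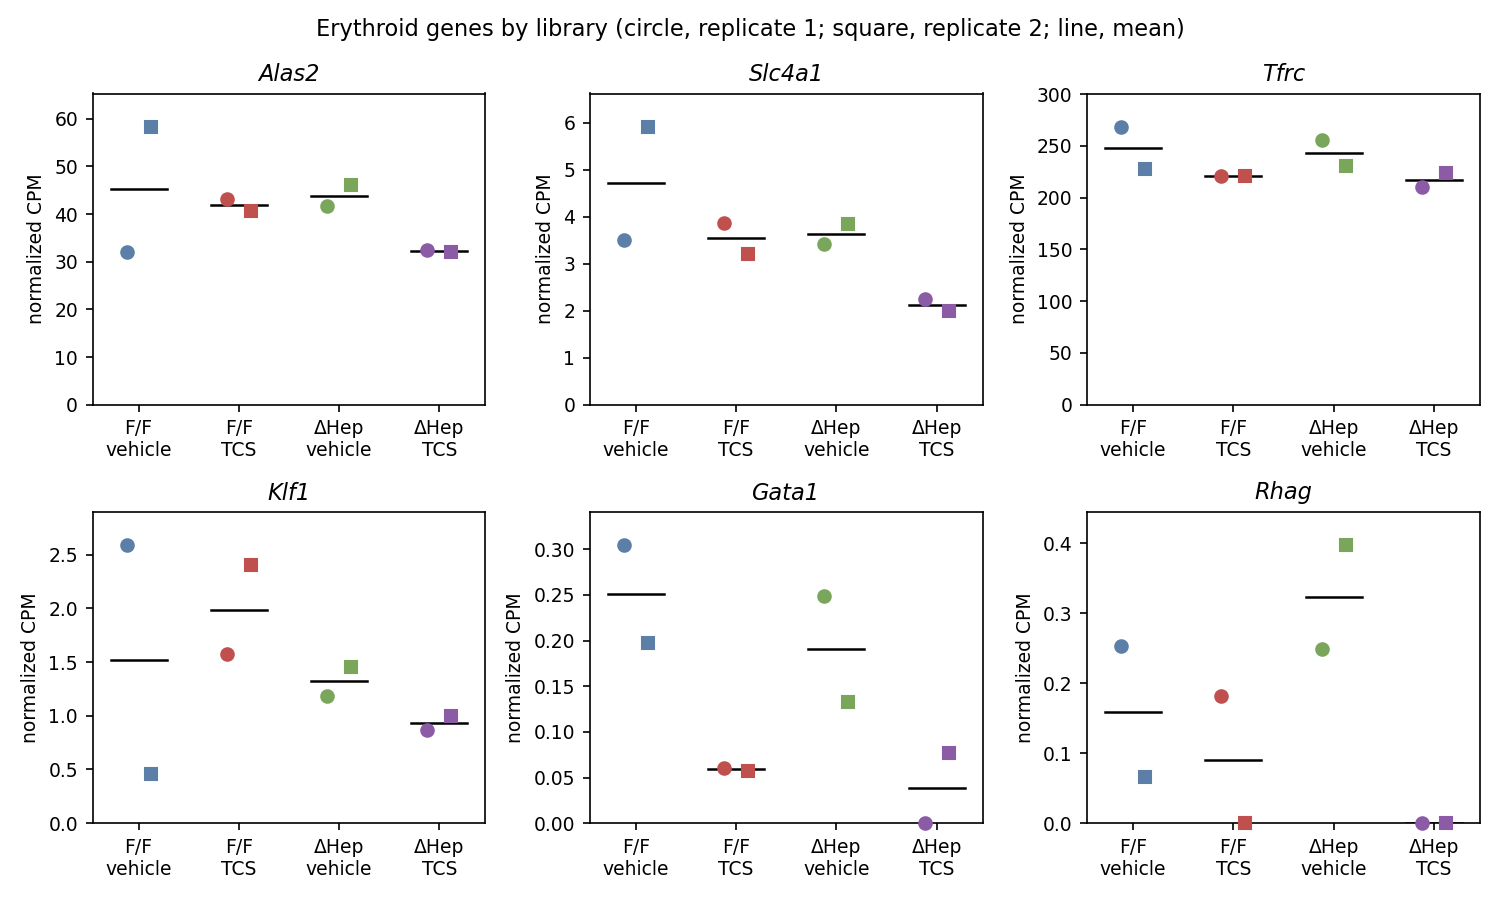
Normalized CPM of 6 erythroid genes in the 8 liver libraries, on linear axes from 0 with a different range in each panel. Circles are replicate 1, squares replicate 2 and lines the group means. Alas2 and Slc4a1 are highest in replicate 2 of vehicle-treated hUGT1/Atf4F/F, at 58.3 and 5.91 CPM, where Klf1 is lowest at 0.460 CPM.

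Alas2, the erythroid form of 5-aminolevulinate synthase and the first enzyme of heme synthesis in red cell precursors, lies at chrX:150547375-150570638 on the plus strand in GRCm38. It had 32.0 and 58.3 CPM in vehicle-treated hUGT1/Atf4F/F libraries and 43.2 and 40.7 CPM with TCS. It had 41.6 and 46.0 CPM in vehicle-treated hUGT1/Atf4ΔHep libraries and 32.5 and 32.0 CPM with TCS. The TCS-treated hUGT1/Atf4ΔHep libraries stood below both vehicle libraries of their genotype and below both TCS-treated hUGT1/Atf4F/F libraries, at the level of the lower vehicle-treated hUGT1/Atf4F/F library. The vehicle-treated hUGT1/Atf4F/F libraries enclosed all others of the TCS-treated hUGT1/Atf4F/F and vehicle-treated hUGT1/Atf4ΔHep groups.

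The group means of Alas2 were 45.2 ± 18.6, 42.0 ± 1.82, 43.8 ± 3.09 and 32.3 ± 0.410 CPM (SD, n = 2), in the order vehicle and TCS in hUGT1/Atf4F/F, then vehicle and TCS in hUGT1/Atf4ΔHep. The fitted log2 fold change for TCS was -0.44 in hUGT1/Atf4ΔHep (SE 0.223, adjusted p = 0.502 by edgeR) and -0.10 in hUGT1/Atf4F/F (SE 0.219, adjusted p = 0.929), and its interaction was -0.34 (adjusted p = 1). Averaged over the genotypes, TCS gave -0.27 (SE 0.156, adjusted p = 0.42). None of these passed an adjusted p of 0.05. Alas2 was called lower under 2 other settings. Without replicate 1 of vehicle-treated hUGT1/Atf4F/F the averaged change was -0.46 with an adjusted p of 0.0201, whereas without replicate 2 of that group it was -0.03 with an adjusted p of 0.907. With the libraries of the hUGT1/Atf4ΔHep comparison alone the change of -0.44 had an adjusted p of 0.0446. In hUGT1/Atf4F/F the sign turned on a single library, with -0.48 without replicate 1 of the vehicle group and 0.39 without replicate 2, and the interaction was 0.03 and -0.83 in the same fits.

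On the opposite strand the gene Apex2 spans the whole of Alas2, and the last exon of Alas2, with 311 bases, lies within an exon of Apex2. Apex2, a DNA repair endonuclease of the base excision pathway, had 6.17 to 8.14 CPM. The libraries were made with a stranded kit, but no source used here gives the strand setting of the counting. Alas2 had 3.95 to 8.07 counts per Apex2 count, and any share of reads that belongs to the other gene was not tested.

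Slc4a1 encodes band 3, the anion exchanger of the red cell membrane, and lies at chr11:102348824-102366203 on the minus strand. It had 3.50 and 5.91 CPM in vehicle-treated hUGT1/Atf4F/F libraries and 3.87 and 3.20 CPM with TCS. It had 3.43 and 3.84 CPM in vehicle-treated hUGT1/Atf4ΔHep libraries and 2.25 and 2.00 CPM with TCS. The TCS-treated hUGT1/Atf4ΔHep libraries were the lowest of the 8 and did not overlap with any other.

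Slc4a1 gave the lowest unadjusted p of the members. The log2 fold change for TCS was -0.79 in hUGT1/Atf4ΔHep (SE 0.300, unadjusted p = 0.0286, adjusted p = 0.365 by edgeR) and -0.40 in hUGT1/Atf4F/F (SE 0.281, adjusted p = 0.69), and averaged over the genotypes it was -0.59 (SE 0.206, 95% interval -1.06 to -0.13, unadjusted p = 0.0185, adjusted p = 0.187). Under TCS the deletion gave -0.75 (SE 0.299, unadjusted p = 0.0348, adjusted p = 1) and under vehicle -0.36 (SE 0.283, adjusted p = 1). No change of Slc4a1 was called in any of the 7 comparisons. In hUGT1/Atf4F/F the TCS value was 0.01 without replicate 2 of the vehicle group and -0.74 without replicate 1. In the same fits the deletion under vehicle was 0.05 and -0.70, and TCS averaged over genotypes was -0.38 and -0.76.

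Rhag, the Rh-associated glycoprotein that carries ammonium or gas across the red cell membrane, lies at chr17:40811126-40840754 on the plus strand. It had 5 and 1 counts in vehicle-treated hUGT1/Atf4F/F libraries and 3 and 0 counts with TCS. It had 4 and 6 counts in vehicle-treated hUGT1/Atf4ΔHep libraries and 0 and 0 counts with TCS. Vehicle libraries held 16 of the 19 counts. In hUGT1/Atf4ΔHep mice the vehicle rate was 0.321 CPM, 4.02-fold above a floor of 3 counts over the TCS group. This ratio takes the vehicle rate, from 10 counts, as exact, so it is not a lower bound on the effect of TCS. In a fit of all 18227 genes with at least 1 count, edgeR gave an adjusted p of 0.369 for this comparison and 0.28 for TCS averaged over genotypes, so the change was not called.

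Klf1, the erythroid Krüppel-like factor that switches on globin and heme genes, lies at chr8:84901928-84905291 on the plus strand. It had 2.59 and 0.460 CPM in vehicle-treated hUGT1/Atf4F/F libraries and 1.57 and 2.40 CPM with TCS. It had 1.18 and 1.46 CPM in vehicle-treated hUGT1/Atf4ΔHep libraries and 0.865 and 0.998 CPM with TCS. Its counts ran from 7 to 51, and the vehicle-treated hUGT1/Atf4F/F replicates were the highest and the lowest of all libraries. The log2 fold change for TCS was 0.34 in hUGT1/Atf4F/F (SE 0.615, adjusted p = 0.908 by edgeR) and -0.48 in hUGT1/Atf4ΔHep (SE 0.673, adjusted p = 0.841), with an averaged value of -0.07 (SE 0.452). The deletion under TCS gave -1.07 (SE 0.648, adjusted p = 1). The value in hUGT1/Atf4F/F was 2.09 without replicate 1 of its vehicle group and -0.38 without replicate 2, and the averaged value was 0.81 and -0.43, so that both signs turned on a single library.

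Gata1, the transcription factor required for erythroid precursors to survive and mature, lies at chrX:7959260-7978071 on the minus strand. It had 6 and 3 counts in vehicle-treated hUGT1/Atf4F/F libraries and 1 and 1 counts with TCS. It had 4 and 2 counts in vehicle-treated hUGT1/Atf4ΔHep libraries and 0 and 2 counts with TCS. The 4 vehicle libraries, at 0.132 to 0.304 CPM, did not overlap with the 4 TCS libraries, at 0 to 0.0767 CPM, and they held 15 of the 19 counts. Of the genes that passed the filter, which Gata1 did not, 5% were lower with TCS without overlap. At these counts the fit of all 18227 genes gave a log2 fold change of -1.89 for TCS averaged over genotypes (SE 0.996, 95% interval -4.01 to 0.23, adjusted p = 0.429 by edgeR). The difference was not called.

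Tfrc, the transferrin receptor through which iron enters cells, lies at chr16:32608920-32632794 on the plus strand. It had 268 and 228 CPM in vehicle-treated hUGT1/Atf4F/F libraries and 221 and 221 CPM with TCS. It had 256 and 230 CPM in vehicle-treated hUGT1/Atf4ΔHep libraries and 211 and 224 CPM with TCS. All vehicle libraries were above all TCS libraries, as for 5% of the genes tested, with means of 246 ± 19.8 and 219 ± 5.72 CPM (SD, n = 4). The log2 fold change for TCS averaged over genotypes was -0.17 (SE 0.063, 95% interval -0.31 to -0.02, unadjusted p = 0.0278, adjusted p = 0.225 by edgeR). The deletion gave -0.03 under vehicle and -0.02 under TCS, with adjusted p = 1 for both. Without replicate 1 of vehicle-treated hUGT1/Atf4F/F, the highest library, the averaged TCS value was -0.10 (adjusted p = 0.412) and the deletion under vehicle was 0.09.

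Hba-a1, an adult alpha globin gene at chr11:32283511-32284465 on the plus strand, was listed at 0 in all 8 libraries. A count of 0 allows up to 3 counts, or 0.115 to 0.260 CPM by library. The other main globin genes in the table, Hba-a2, Hbb-bs, Hbb-bt, Hbb-b1, Hbb-b2, Hba-x, Hbb-y, Hbb-bh1 and Hbb-bh2, were also listed at 0, and the summed level of Hbq1a and Hbq1b was at most 0.187 CPM. Hba-a1 and its neighbour Hba-a2 are near-identical copies, as are Hbb-bs and Hbb-bt. The coding sequences of the alpha pair differed at 1 of 429 bases and those of the beta pair at 1 of 444, with identical runs of up to 380 and 416 bases. The coding bases 351 to 411 of the alpha pair, counted from 1 at the start codon, show the differing base C381T in capitals, with the base of Hba-a1 first.
Hba-a1: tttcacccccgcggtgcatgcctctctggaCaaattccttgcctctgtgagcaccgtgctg
Hba-a2: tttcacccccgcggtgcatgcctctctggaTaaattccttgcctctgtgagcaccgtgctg

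A read within such a run matches both copies equally, and no source used here says how such reads were counted. The zeros therefore give no level of hemoglobin RNA in these livers, and their cause was not tested. With Hba-a1 at 0 and Gata1 and Rhag at 19 counts each over all libraries, the label erythroid rests in these data on Alas2, Slc4a1 and Klf1, beside the more widely expressed Tfrc.

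None of the 4 tested members was called in any of the 7 comparisons (TCS in each genotype, the deletion under each treatment, their interaction and both averaged effects). Among all 13633 genes tested, edgeR called 0.557% for TCS in hUGT1/Atf4F/F, 0.675% for TCS in hUGT1/Atf4ΔHep and 2.59% for TCS averaged over genotypes. It called 0.022% for the deletion with vehicle, 0.022% with TCS and 0.044% averaged over treatments, and 0% for the interaction. DESeq2 called none of the members either. At an unadjusted p under 0.05, TCS averaged over genotypes had 2 members lower, Slc4a1 and Tfrc, where 7.75% of all genes were lower by that rule. TCS in hUGT1/Atf4ΔHep had 1, Slc4a1, against 4.94% of all genes, and the deletion under TCS also had Slc4a1 alone, against 1.75%, as did the deletion averaged over treatments, against 2.07%. The other 3 comparisons had none.

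The libraries of TCS-treated hUGT1/Atf4ΔHep mice stood below those of their vehicle group for 4 of 4 tested members. In this comparison 21.5% of all genes were lower without overlap. TCS in hUGT1/Atf4F/F left only Tfrc lower without overlap, where 19% of all genes were. The deletion under TCS left Alas2, Slc4a1 and Klf1 lower without overlap, where 15.3% of genes were, and the deletion under vehicle left none, where 14.9% were. The interaction was not called for any member, so a difference between the genotypes in the response to TCS was not shown. The comparisons of TCS in hUGT1/Atf4ΔHep and of the deletion under TCS share the TCS-treated hUGT1/Atf4ΔHep libraries.

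**Figure D2:**
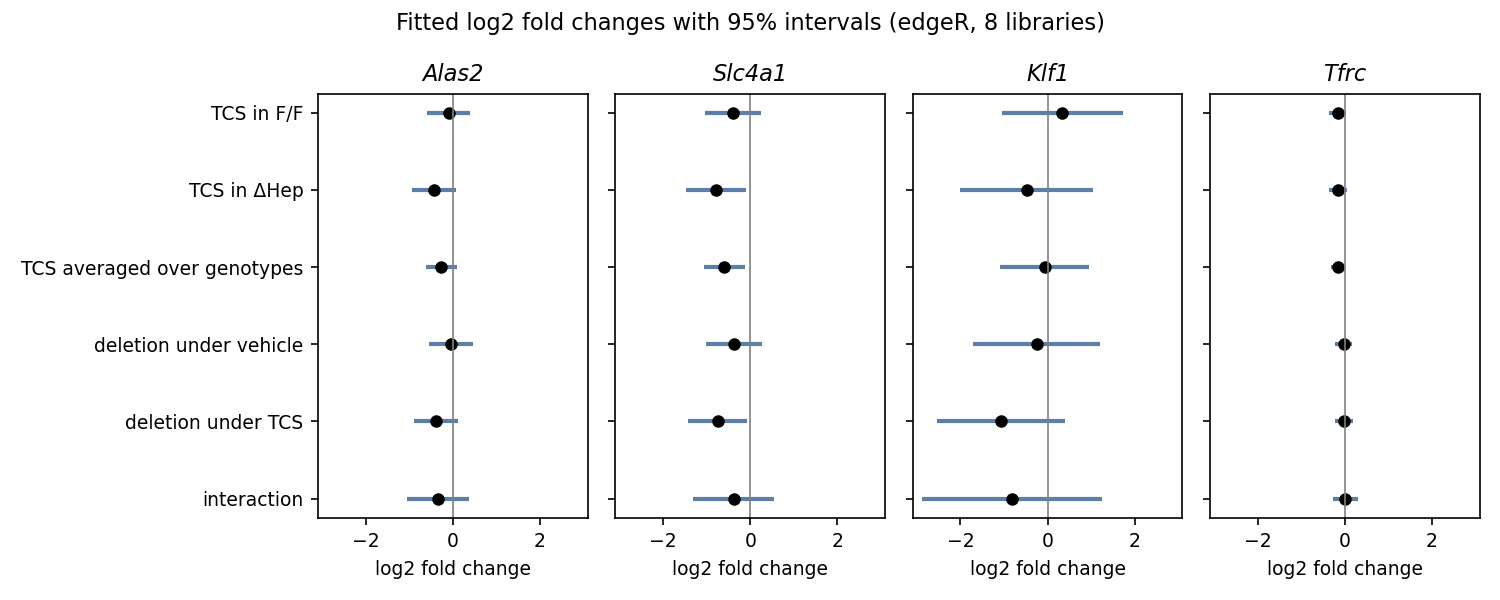
Log2 fold changes of the 4 tested members in 6 comparisons, as points with 95% intervals from the edgeR fit of 8 libraries. The intervals of Slc4a1 for TCS averaged over genotypes, -1.06 to -0.13, and of Tfrc, -0.31 to -0.02, lie below 0, and no adjusted p passed 0.05.

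Sex makeup could be held fixed in hUGT1/Atf4ΔHep mice, where each treatment had 1 library with high Xist and 1 with low Xist. Between the high-Xist libraries Alas2 was 41.6 CPM with vehicle and 32.0 CPM with TCS, and between the low-Xist libraries 46.0 and 32.5 CPM. Slc4a1 was 3.43 and 2.00 CPM in the former pair and 3.84 and 2.25 CPM in the latter. As the vehicle and TCS libraries of this genotype did not overlap for either gene, any pairing would give the same order, and the pairs add only the size of the differences. With the summed level of Y-linked genes as a covariate in edgeR, Alas2 for TCS in hUGT1/Atf4ΔHep was -0.45 (adjusted p = 0.511) and Slc4a1 was -0.79 (adjusted p = 0.375). In hUGT1/Atf4F/F they were 0.04 and -0.15. Relative to its highest library, the covariate was 0.979 and 1 with vehicle and 0.518 and 0.412 with TCS in hUGT1/Atf4F/F. Its slope therefore rested mostly on the replicate differences within hUGT1/Atf4ΔHep groups. Adjusted values for hUGT1/Atf4F/F, and those averaged over genotypes, extend that slope to hUGT1/Atf4F/F. For TCS averaged over genotypes, edgeR with this covariate gave -0.47 for Slc4a1 (adjusted p = 0.527) and -0.23 for Tfrc (adjusted p = 0.247). Alas2 was -0.21 (adjusted p = 0.729) and Klf1 -0.12 (adjusted p = 0.967) in that comparison.

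The members did not form a single pattern across libraries. Alas2 and Slc4a1 varied together (Pearson r = 0.873 of log2 CPM over the 8 libraries, and 0.957 for deviations from group means), and the ratio of Alas2 to Slc4a1 in CPM lay between 9.16 and 16.0. Klf1 had an r of -0.948 against Alas2 for deviations from group means and -0.426 over the libraries themselves. The widest gap between replicates for both genes was in vehicle-treated hUGT1/Atf4F/F, where log2 CPM was 1.43 and -0.80 for Klf1 and 5.01 and 5.87 for Alas2, so that this pair weighs most in both correlations of deviations. In vehicle-treated hUGT1/Atf4ΔHep both genes were higher in replicate 2. In replicate 1 of vehicle-treated hUGT1/Atf4F/F, Klf1 stood at 180% of its mean and Alas2 at 78.5%, and in replicate 2 Klf1 stood at 31.9% and Alas2 at 143%. Gata1, at only 0 to 6 counts per library, had an r of 0.911 with Tfrc, and 0.834 for deviations. Both genes were higher in all vehicle libraries than in all TCS libraries. With 2 libraries in each of the 4 groups, the deviations within a group are equal and opposite. The correlations of deviations therefore rest on 4 differences between replicates. The other correlations are over 8 libraries that share their depth and composition. The vehicle-treated hUGT1/Atf4F/F replicates differed the most of any group for Alas2 (SD 18.6 CPM), Slc4a1 (SD 1.70 CPM) and Klf1.

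**Figure D3:**
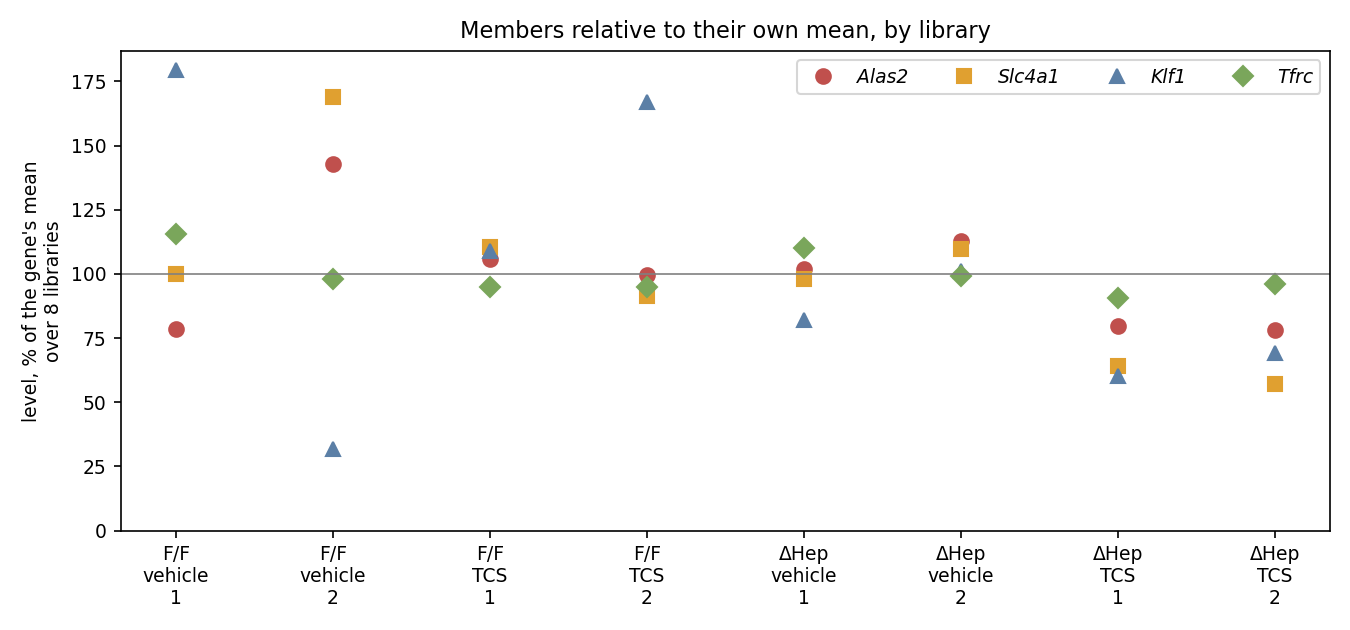
Levels of 4 erythroid genes in each library as a percentage of the gene's own mean over 8 libraries, on a linear axis from 0. In replicate 2 of vehicle-treated hUGT1/Atf4F/F, Slc4a1 reaches 169% and Alas2 143% while Klf1 is at 31.9%, and in both TCS-treated hUGT1/Atf4ΔHep libraries Alas2, Slc4a1 and Klf1 are all below 80%.

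Among 12635 other genes with a mean of at least 1 CPM, those whose log2 CPM across the 8 libraries was most like the mean of the members were Tle4 (r = 0.991), Pcolce (0.987), Tspan15 (0.978), Rexo1 (0.976), Arid2 (0.968), Ddx39b (0.944), Epha3 (0.942), Gdf10 (0.941), Traf6 (0.941) and Taf2 (0.941). For deviations from group means, which rest on 4 differences between replicates, their r ran from 0.621 for Gdf10 to 0.970 for Tle4. None of the erythroid genes on the wider lists was among these 10. The mean over members gives each gene equal weight. On the log2 scale Klf1 ran from -0.80 to 1.43, at 7 to 51 counts. Rhag ran from -3.11 to -0.96 and Gata1 from -3.11 to -1.25, at 0 to 6 counts, whereas the 8 values of Alas2 lay within 1 unit. The mean, and with it the choice of these 10 genes, therefore follows Klf1, Rhag and Gata1 more than Alas2.

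The wider erythroid genes were grouped by role, and values are for TCS averaged over genotypes unless stated. In that comparison 5% of all genes tested were lower with TCS without overlap, and the share that was higher is not reported here. Of the red cell membrane and skeleton genes, 13 of 21 were tested, 0 were called for TCS averaged over genotypes, and the median log2 fold change was -0.01, as over all genes. For the deletion averaged over treatments, 12 of these 13, Slc4a1 among them, were negative and 1 was positive (median -0.08). The heme synthesis and mitochondrial iron genes had 11 positive and 3 negative values for that deletion effect (median 0.04). None of either list was called for it. Aqp1, a water channel of red cells and also of endothelium, had 114 CPM in the 4 vehicle libraries and 96.8 CPM in the 4 TCS libraries without overlap (log2 fold change -0.23, SE 0.079, unadjusted p = 0.0164, adjusted p = 0.177 by edgeR), and was not called.

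Of the erythroid transcription factors, 10 of 12 were tested, 4 with a positive and 6 with a negative value for TCS averaged over genotypes, and none was called. E2f2, a cell cycle factor of erythroid precursors, had 10.4 CPM with vehicle and 8.15 CPM with TCS without overlap (log2 fold change -0.34, adjusted p = 0.203). Zfpm1, the partner of GATA1 known as FOG1, had 44.3 and 42.0 CPM (adjusted p = 0.465). Cited4 and Nfe2 were under 1 CPM on average in both treatments, with log2 fold changes of 0.28 and 0.32 (adjusted p = 0.725 and 0.738).

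The heme synthesis and mitochondrial iron genes, all 14 tested, had positive values in 10 cases, where that of Alas2 was negative. Their median log2 fold change for TCS averaged over genotypes was 0.10, against -0.01 for all genes. The only one called was Fam210b, a mitochondrial protein that aids iron import for heme in erythroid cells, whose log2 level fell by 0.21 (SE 0.045, adjusted p = 0.0483), from 147 to 127 CPM without overlap. It lost this call in 10 of 14 alternatives, including without each of the 8 libraries in turn, with adjusted p from 0.0162 to 0.26. Fech, which inserts iron into heme, had 149 CPM with vehicle and 163 CPM with TCS without overlap (adjusted p = 0.187). Cpox, a coproporphyrinogen oxidase, had 206 and 231 CPM with overlap (adjusted p = 0.215). Hepatocytes also make heme, so these levels are not those of red cell precursors alone.

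**Figure D4:**
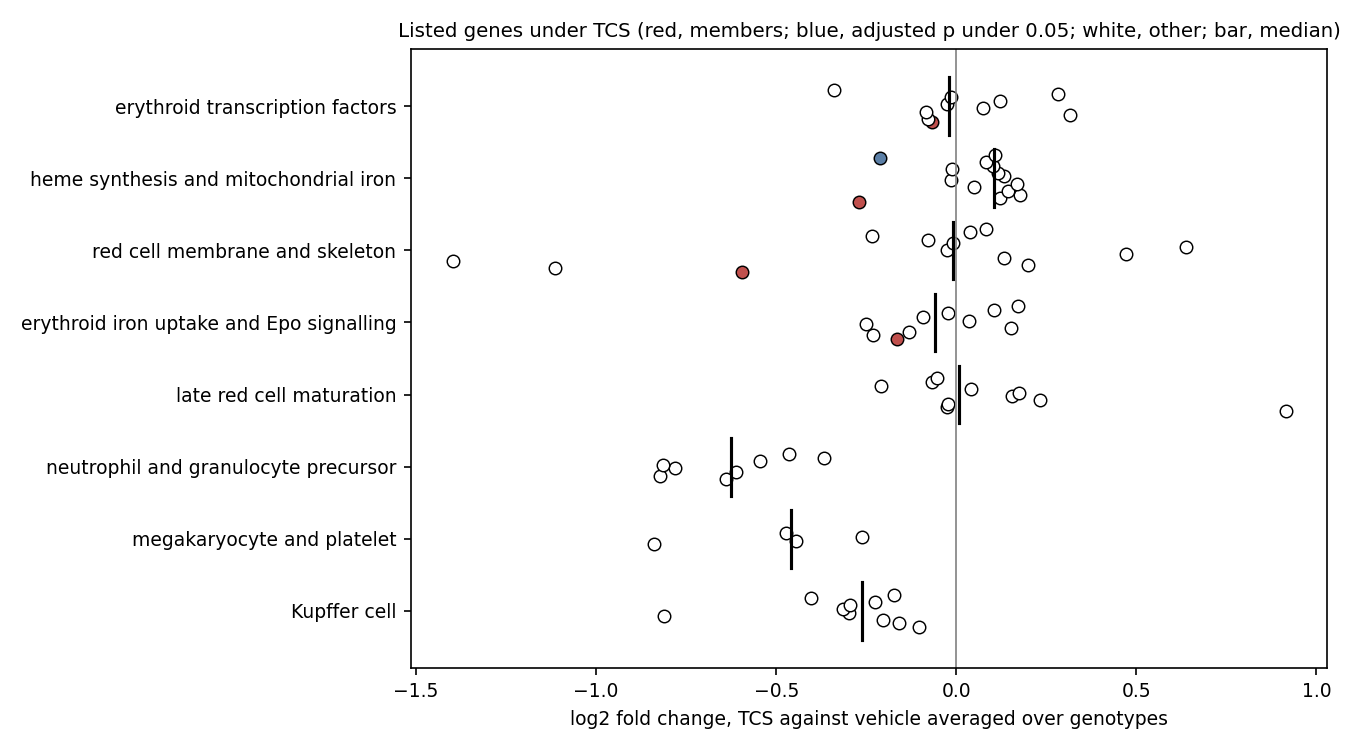
Log2 fold changes for TCS averaged over genotypes of each tested gene of 8 lists, with red for members, blue for genes with an adjusted p under 0.05, white for others and bars for list medians. Slc4a1 is at -0.59, Alas2 at -0.27 and the called Fam210b at -0.21, and all tested neutrophil, megakaryocyte and Kupffer cell genes have negative values.

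Of the iron uptake and erythropoietin signalling genes, 10 of 11 were tested and none was called. Kit, the stem cell factor receptor of early precursors, had 14.5 CPM with vehicle and 12.2 CPM with TCS without overlap (adjusted p = 0.154). Steap3, a reductase that frees iron in endosomes, had 65.4 and 55.7 CPM (adjusted p = 0.173). Aco1, the iron regulatory protein IRP1, which binds Tfrc RNA when iron is low, had 233 and 263 CPM without overlap (log2 fold change 0.17, adjusted p = 0.0962).

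Among late maturation genes, 10 of 14 were tested and none was called. Car1, a carbonic anhydrase of red cells that other tissues also express, had 1.73 CPM with vehicle and 3.22 CPM with TCS (log2 fold change 0.92, SE 0.231, unadjusted p = 0.0035, adjusted p = 0.0844). Bnip3l, which clears mitochondria from reticulocytes, had 55.0 and 62.1 CPM without overlap (adjusted p = 0.116). Prdx2, a peroxiredoxin, and Blvrb, a biliverdin reductase, had positive values of 0.15 and 0.23 (adjusted p = 0.147 and 0.195). The median of the list was 0.01.

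Markers of neutrophils, megakaryocytes and Kupffer cells had values of the same sign as Slc4a1, and so did most markers of hepatocytes and endothelium. All 8 tested neutrophil and granulocyte precursor genes had negative values for TCS averaged over genotypes (8 of 10 tested, median -0.63), and their summed level was 28.7 to 37.1 CPM in the vehicle libraries and 14.1 to 29.1 CPM in the TCS libraries. All 4 tested megakaryocyte and platelet genes (of 8) were negative as well, with a median of -0.46 and summed levels of 11.0 to 13.8 and 7.72 to 10.2 CPM. All 10 Kupffer cell genes were negative, with a median of -0.26 and summed levels of 480 to 711 and 472 to 552 CPM. Of the hepatocyte genes 7 of 8 were negative (median -0.15) and of the liver endothelium genes 5 of 6 (median -0.18), so the sign was not particular to blood cells. The B cell genes had 6 of 7 negative values with a median of -0.05, and the only tested mast cell and basophil gene had a positive value of 0.21. None of these genes was called, no marker of the neutrophil, megakaryocyte and Kupffer cell lists was at 0 in all libraries, and their part in the levels of the erythroid genes was not tested. The 15 proliferation genes had a median of -0.03.

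Of the 14 hepatic iron handling genes, the supply side of red cell iron, 4 were called for TCS averaged over genotypes, where 2.59% of all genes were. Ftl1, the ferritin light chain, had a log2 level that rose by 0.39 for TCS averaged over genotypes (SE 0.049, adjusted p = 0.00471 by edgeR), from 1203 to 1574 CPM without overlap. Hpx, hemopexin, which binds free heme in plasma, fell by 0.35 (SE 0.040, adjusted p = 0.00255), from 3843 to 3005 CPM without overlap. Both were called in all 14 alternatives of that comparison. Trf, transferrin, the ligand of the receptor encoded by Tfrc, fell by 0.42 (SE 0.086, adjusted p = 0.0422), from 29201 to 21789 CPM without overlap. Slc39a14, an iron and zinc importer, fell by 0.25 (SE 0.053, adjusted p = 0.046), from 316 to 265 CPM without overlap. Trf lost the call in 7 and Slc39a14 in 9 of 14 alternatives, with adjusted p up to 0.217 and 0.177.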

How the data were processed

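Whole-number counts per gene symbol in 8 liver libraries were used as deposited by the authors. Per the submitters' processing notes, bcl2fastq 2.20 and STAR 2.7.9a were used on mm10, and no source used here gives the counting program or its annotation. Deposited normalized values and comparison tables of the authors were not used. Libraries were grouped by the sample labels. The members and the gene lists were chosen with earlier results of these data known.

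The main test was that of edgeR 4.0.16 in R 4.3.3. Genes passed filterByExpr (count minimum 10, total count minimum 15), which kept 13633 of 24411 genes, with TMM normalization. Its quasi-likelihood model fitted 1 mean per group to the 8 libraries together, which left 4 residual degrees of freedom, and p-values were adjusted by Benjamini and Hochberg over all genes tested, with calls under 0.05. Standard errors were derived from the F statistic (log2 fold change over its root). Correlations were of log2 CPM (prior count 2), and levels per length used merged exons of GENCODE M21. Promoter sequences are from RefSeq on GRCm38.p6. Named listed genes were up to 4 per list with the smallest unadjusted p for TCS averaged over genotypes, and any called, and some of these are not reported here. The 10 genes most like the members were named by r. Replicates of a group differed by more than sampling noise (chi-square per gene 7.71 to 17.0). The fit was tested on simulated data. Alternatives were RLE factors, globin genes left out, no filter, the libraries of a comparison alone, an adjusted p under 0.01, DESeq2 1.42.0, the replicate number as a block, a sex makeup covariate and each library left out. Figures were drawn with matplotlib 3.10.9.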

Additional observations from a re-analysis of the deposited data

How the results depend on the processing

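The count of members called, 0 in each of the 7 comparisons, was 1 with the libraries of the comparison alone for TCS in hUGT1/Atf4ΔHep (Alas2) and ranged from 0 to 1 over the fits that left out a library for TCS averaged over genotypes (1, Alas2, without replicate 1 of vehicle-treated hUGT1/Atf4F/F). It was 0 under every other alternative run. Of 408 member values under alternatives, 382 kept their sign and call, 2 became called and 24 changed sign with no call. Correlations of deviations between same-numbered libraries ran from -0.428 to 0.373, with no common sign. They do not settle whether the replicate numbers paired the samples, because the pools also differed in sex makeup. The replicate block called 0 members in every comparison. With the block, 249 genes in place of 353 were called for TCS averaged over genotypes, 64 in place of 76 in hUGT1/Atf4F/F and 72 in place of 92 in hUGT1/Atf4ΔHep. Over all alternatives the counts of genes called ran from 107 to 538, 20 to 166 and 11 to 221, from 2 to 5 and 2 to 31 for the deletion under vehicle and under TCS (3 each), from 3 to 12 for the deletion averaged (6) and from 0 to 1 for the interaction (0). Ftl1 and Hpx for TCS in hUGT1/Atf4ΔHep lost their call in 5 and 4 of 15 alternatives. For TCS averaged over genotypes, Aco1 was called with DESeq2 (adjusted p = 0.0449) and Car1 without the filter (adjusted p = 0.0487). The spread of only 2 libraries in a group sets the precision for Alas2, Slc4a1 and Tfrc, and counting error adds to it for Klf1, Gata1 and Rhag.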
